A study of Mus musculus with 18 samples.

Results

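The kidney cortex of mice that had received aristolochic acid I (AAI) and then had time to remodel was compared with cortex given the vehicle, across all 14604 genes tested. The members are libraries, taken by their sample labels alone: 3 AAI libraries and 3 vehicle libraries of the same genotype, 6 of the 18 in the series. All come from C57Bl/6 mice of the genotype Klf6fl/fl, in which both alleles of the transcription factor gene Klf6 are floxed. No knockout is labelled in either group. The AAI libraries are from cortex after 3 weeks of AAI and a remodeling time of 3 further weeks, which the titles call 6 weeks, and they are called the 6-week libraries here. The vehicle libraries received dimethyl sulfoxide (DMSO). The other AAI group of this genotype, taken at the end of 3 weeks of AAI, was used for 1 direct test of whether a level at 6 weeks differed from the level when the toxin stopped. The labels give no dose, age or sex, do not say when the DMSO kidneys were taken, and do not tie each library to an animal of its own. The p-values therefore measure a spread between libraries of a group that may be technical. That spread was pooled over all 18 libraries of the series, which include groups labelled PTKO, the other genotype. The choice of genes to test used all 18 as well.

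AAI is a plant toxin that enters the proximal tubule through organic anion transporters and forms DNA adducts there. The proximal tubule reclaims most of the filtered solutes and burns fatty acids to do so, and when it is injured its surviving cells lose these functions, divide and then mature again. Cells that do not mature again can persist in an inflammatory state known as failed repair, beside scar-forming fibroblasts and immune cells. Kidney disease caused by aristolochic acid is known for such scarring of the cortex.

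Levels are CPM, a gene's reads scaled by the total of its library, and differences are log2(CPM + 1) at 6 weeks minus DMSO unless said otherwise. The libraries held 16516093 to 19683107 reads under DMSO and 11722625 to 20063456 reads at 6 weeks, the shallowest being 6-week replicate 2. A gene was called higher or lower at an adjusted p under 0.05 (limma, Benjamini-Hochberg over all genes), and only such genes are said to have risen or fallen. A value after ± is a standard error (SE) of the fit. The 10 most abundant genes took 11.1 to 12% of reads under DMSO and 6.5 to 8.05% at 6 weeks, and the median of all genes stood 0.45 above DMSO. That median was 0.02 with median-of-ratios scaling and -0.09 with quantile normalization, so the number called alike under all 3 scalings is given beside the main count of a gene group. Because whole cortex was sequenced, fewer cells of a type and less RNA per cell cannot be told apart.

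Of the genes tested, 8733 (59.8%) were higher and 2036 (13.9%) lower at 6 weeks than under DMSO. Under all 3 scalings, 3491 genes (23.9%) were higher and 1977 (13.5%) lower. In 9207 genes (63%) every 6-week library lay above every DMSO library, and in 2294 (15.7%) every one lay below. Median-of-ratios scaling alone split the calls into 4997 higher (34.2%) and 4712 lower (32.3%). The count for each gene group below is to be read against these shares. Genes low under DMSO could enter the test only through AAI libraries, so the counts for such groups are descriptions of the tested genes. The largest rises were mostly in genes of macrophages and injured tubules. Gpnmb, a glycoprotein of lipid-laden macrophages, was at 0.363, 0.559 and 0.898 CPM under DMSO and 1236, 362 and 567 CPM at 6 weeks. Lyz2, the lysozyme of myeloid cells, was at 12.6, 12 and 17.4 CPM under DMSO and 2604, 1429 and 2188 CPM at 6 weeks, and Mmp12, the macrophage elastase, at 5.45, 3.4 and 5.97 CPM under DMSO and 1445, 377 and 693 CPM at 6 weeks. Genes with the largest rises and falls were picked only where the groups did not overlap, so the separation of these 3 from DMSO was a condition of naming them. Replicate 2 was the lowest 6-week library for all 3 genes. The other genes with the largest rises were Lcn2, C3, Havcr1, Ltbp2, Lyz1, Ccl9 and Retnla, at differences of 7.36, 6.20, 6.12, 6.08, 6.03, 5.99 and 5.80. Lyz1 and Retnla had 1 read each in the 3 DMSO libraries together, at ratios of 3704 (664 to 146357) and 3025 (542 to 119530) (in brackets here and below, exact intervals of 95% for counting error only), and Lyz1 shares sequence with Lyz2.

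The largest falls were mostly in genes for the chemistry and transport of the proximal tubule. Dpys, which opens the ring of dihydropyrimidines, was at 25.2, 27.9 and 31.4 CPM under DMSO and 0.648, 0.0853 and 0.232 CPM at 6 weeks, and its adjusted p of 6.44e-11 was the smallest of all. Cyp4b1, an abundant renal cytochrome P450, was at 5484, 5526 and 4637 CPM under DMSO and 161, 411 and 209.8 CPM at 6 weeks, a difference of -4.43 ± 0.37 (SE). Slco1a1, an organic anion transporter of the straight tubule, was at 738, 864 and 631 CPM under DMSO and 19.1, 79.4 and 6.19 CPM at 6 weeks, with replicate 2 the highest 6-week library. Azgp1, a secreted lipid-mobilising glycoprotein, and Pzp, a protease inhibitor, fell (differences of -4.83 and -4.42), and Ces1g, a carboxylesterase, did too (-4.65). Cyp2a5, Cyp4a12a and Cyp2d12 fell (differences of -5.17, -5.06 and -4.85), and all 3 belong to gene families whose close copies can share reads. The smallest adjusted p-values for falling genes also belonged to Susd2 (-2.43), the membrane carbonic anhydrase Car4 (-3.28), Pde6a (-3.48), Cntnap5a (-2.74), the dipeptidase Cndp2 (-2.27), the ceramide desaturase Degs2 (-2.25), Hsd17b11 (-1.56) and Cyp4a32 (-2.44). Among those that rose, besides C3 and Lcn2, they were Cd109 (3.31), the membrane repair gene Myof (3.73), Mrc1, Serpinb6a (2.14), Cdkn1a, Dcdc2a, the heparan sulfate editing enzyme Sulf2 (2.31) and the mitochondrial carrier Slc25a24 (3.47).

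**Figure D1:**
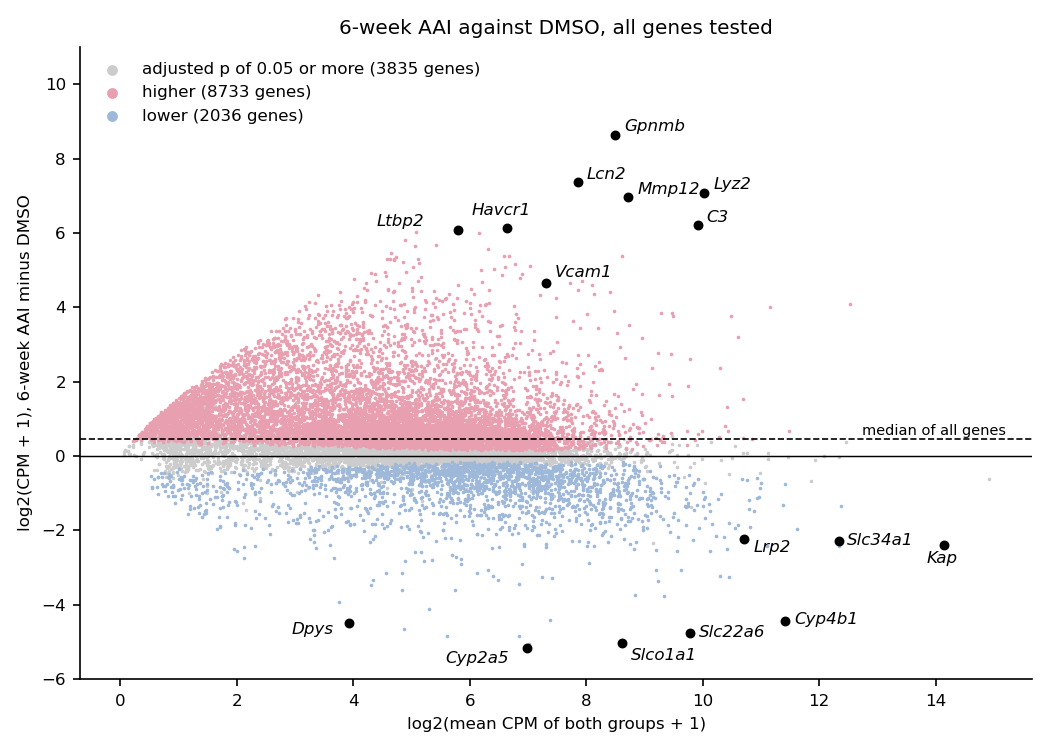
Each point is 1 of 14604 genes, with the log2 of the mean CPM of both groups plus 1 on the x axis and the log2(CPM + 1) difference, 6-week AAI minus DMSO, on the y axis; red and blue mark adjusted p under 0.05 and the dashed line the median of all genes (0.45). Gpnmb (8.64) lies highest and Cyp2a5 (-5.17) lowest among the labelled genes, and 8733 points are red against 2036 blue.

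The transcription factors that hold the proximal tubule in its mature state were mostly lower. Of 17 regulators, 13 fell (12 under all 3 scalings) and 2 rose (both under all 3), with a median of -1.0 against 0.45 for all genes. Hnf4a, the nuclear receptor that drives maturation of this segment, was at 1199, 1256 and 1216 CPM under DMSO and 387, 618 and 467 CPM at 6 weeks. Ppara, the master activator of fatty acid oxidation, was at 268, 280.3 and 306 CPM under DMSO and 50.6, 88.3 and 66.3 CPM at 6 weeks, a difference of -2.08 ± 0.28 (adjusted p = 6.78e-06). In both genes every 6-week library lay below every DMSO library. The bile acid receptor Nr1h4, the thyroid hormone receptor Thrb and the vitamin D receptor Vdr fell (differences of -1.55, -1.36 and -1.08). The 2 that rose were the nephron development factors Pax2 (1.17) and Pax8 (1.0). Ppargc1a, the coactivator of mitochondrial growth, was at 94.1, 122 and 116 CPM under DMSO and 104, 99.6 and 87.7 CPM at 6 weeks; it did not pass the test and its groups overlapped.

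Megalin and cubilin, the receptors that retrieve filtered protein, fell with most of their partners. Lrp2 (megalin) was at 2503, 2832 and 2895 CPM under DMSO and 456, 917 and 471 CPM at 6 weeks, and Cubn (cubilin) at 669, 701 and 766 CPM under DMSO and 164, 347 and 186 CPM at 6 weeks. No 6-week library reached the DMSO range for either, and replicate 2 was the nearest. Of 10 genes of this machinery, 8 fell (7 under all 3 scalings), including the receptor chaperone Lrpap1, the chloride-proton exchanger Clcn5 and the folate receptor Folr1 (-1.29). The exceptions were Gc, the vitamin D binding protein that is itself a ligand of megalin, which rose from 47.8, 33.1 and 40 to 161, 132 and 267 CPM, and the phosphatase Ocrl (0.52), whose rise was lost with both other scalings.

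Transporters for glucose, phosphate, bicarbonate and related solutes fell in 8 of 12 genes (7 under all 3 scalings). The dicarboxylate carrier Slc13a3 fell furthest, from 1228, 1172 and 1195 to 44, 119.7 and 125 CPM. The phosphate transporter Slc34a1, the sodium-proton exchanger Slc9a3 and the sodium-bicarbonate carrier Slc4a4 fell (differences of -2.28, -1.57 and -1.17). The late-segment glucose transporter Slc5a1 was at 65, 67.8 and 83.5 CPM under DMSO and 99.3, 104 and 72.1 CPM at 6 weeks, did not pass the test (0.34) and overlapped with DMSO, whereas the early-segment transporter Slc5a2 fell by 0.97; the 2 genes were not tested against each other. Without 6-week replicate 3 Slc5a1 was called higher (0.50, adjusted p = 0.0402).

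Of 18 drug and organic ion transporters, 14 fell, all of them under all 3 scalings, and the median was -1.58. Slc22a6 (OAT1), the basolateral carrier by which AAI itself is taken up, was at 1660.4, 1705 and 1690.3 CPM under DMSO and 30.5, 155 and 48.5 CPM at 6 weeks, and its difference was -4.76 ± 0.56 (adjusted p = 1.7e-06). Its neighbour in function Slc22a8 (OAT3) fell by 3.73. Every 6-week library was below DMSO for both, and the Slc22a6 level in replicate 2 was the highest of the 3. The urate carriers Slc22a12 and Slc17a3 fell (differences of -2.50 and -2.52), and the efflux pumps Abcc2 and Abcg2 did too (-1.63 and -1.26). Abcc4, another efflux pump of organic anions, rose from 50.9, 51.9 and 64.8 to 108, 93 and 123 CPM. Slc22a7, Slc22a13 and Slco4c1 did not pass the test. Slc22a7 (OAT2) was at 137, 125 and 174 CPM under DMSO and 57.4, 271 and 25.8 CPM at 6 weeks, so replicate 2 lay above all 3 DMSO libraries and the other 2 below them.

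Amino acid carriers were split. 9 of 18 fell (8 under all 3 scalings), among them the main neutral carrier Slc6a19 (-1.95) and the cystine carrier subunits Slc3a1 (-1.29) and Slc7a9 (-0.99). The 3 that rose did so under all 3 scalings. Slc7a11, the cystine-glutamate exchanger that feeds glutathione synthesis, was at 0.121, 0 and 0.0528 CPM under DMSO and 20.3, 6.31 and 8.97 CPM at 6 weeks, a ratio of reads of 246 (83.7 to 1195). Slc7a5, the leucine carrier of growing cells, was at 2.91, 2.74 and 3.01 CPM under DMSO and 25.1, 16 and 24.6 CPM at 6 weeks. The proline and glycine carrier Slc36a2 was at 0.0605, 0.0508 and 0.0528 CPM under DMSO and 5.48, 4.01 and 4.72 CPM at 6 weeks, a ratio of 89.6 (30.2 to 438). None of these 3 overlapped with DMSO.

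The enzymes that handle drugs, steroids and fatty acids in this segment were mostly lower. Of 23 cytochrome P450 genes 14 fell and 4 rose (14 and 3 under all 3 scalings), with a median of -1.37. Cyp2e1 was at 2762, 2814 and 1955 CPM under DMSO and 183, 233 and 408 CPM at 6 weeks. The risers were Cyp4v3 (2.21), Cyp1b1 (1.77), Cyp2s1 (1.30) and Cyp27b1 (1.02), the enzyme that activates vitamin D, whose call was lost with both other scalings and without 4 of the 6 libraries in turn (adjusted p from 0.0522 to 0.132; all but replicate 2 at 6 weeks and replicate 3 of DMSO). Of 21 conjugating enzymes 11 fell and 3 rose (11 and 2 under all 3 scalings). Those that fell included the cysteine conjugate acetyltransferase Nat8 (-2.16), Ugt3a1 (-2.12) and Gsta3 (-1.59). Nnmt, which methylates nicotinamide, rose from 1.15, 0.457 and 0.317 to 5.63, 2.64 and 7.27 CPM, and Gstm2 (1.22) and Sult1a1 (0.89) also rose, the last only on unscaled CPM. Cyp2d26 and the efflux pump Abcb1a lost their calls for lower without several single libraries, among them 6-week replicate 2, at -0.61 (adjusted p = 0.0518) and -0.50 (adjusted p = 0.076).

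Transcripts of fatty acid oxidation and oxidative phosphorylation mostly fell. Of 28 genes of fatty acid oxidation 25 fell and none rose (24 lower under all 3 scalings), with a median of -1.03. Cpt1a, the carnitine acyltransferase that admits long-chain fatty acids to mitochondria, was at 803, 869.9 and 804 CPM under DMSO and 379, 451 and 428 CPM at 6 weeks, with no overlap. The butyryl-CoA synthetase Acsm2 fell furthest (-2.42). Acsm3, at 1096, 1277 and 1283 CPM under DMSO and 391, 1024 and 261 CPM at 6 weeks, lay below DMSO in all 3 libraries but did not pass (adjusted p = 0.206). Of 26 nuclear-encoded subunits of oxidative phosphorylation 22 fell and none rose (17 lower under all 3 scalings), with a median of -0.59. In neither list, nor among the genes of amino acid breakdown below, was a gene higher at an unadjusted p under 0.05 (limma), and edgeR and DESeq2 called 0 higher. The complex I subunit Ndufs1 was at 349.8, 357 and 339.8 CPM under DMSO and 159.7, 225 and 163 CPM at 6 weeks, without overlap, and Sdhb of complex II and Atp5a1 of the ATP synthase differed by -0.77 and -0.60; quantile normalization ended the Atp5a1 call.

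Breakdown of amino acids fell in 21 of 25 genes, with none higher and a median of -1.48, and all 21 fell under all 3 scalings. Hpd, of tyrosine breakdown, was at 81.6, 82.7 and 54.3 CPM under DMSO and 3.64, 6.4 and 1.16 CPM at 6 weeks. Kmo, of the kynurenine pathway, and Aspa, which cleaves N-acetylaspartate, fell (differences of -2.43 and -2.46). Branched-chain amino acid breakdown, a pathway the study chose with these samples in view, fell in 21 of 25 genes (21 under all 3 scalings), which is no independent evidence of its direction. Abat, Aldh6a1 and Ivd fell (differences of -2.0, -1.93 and -1.72), while the transaminases Bcat1 and Bcat2 did not pass the test on unscaled CPM (0.57 and -0.11). With median-of-ratios scaling 24 of the 25 genes were lower, and 24 with quantile normalization. Under those scalings Bcat1 and Bcat2 therefore cannot both have gone without a call for lower.

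Glucose enzymes were divided, with 8 of 20 higher and 8 lower (6 and 7 under all 3 scalings). Genes of gluconeogenesis (Pck1, G6pc, Fbp1, Pcx) and the fructose kinase Khk fell, G6pc, the last step of glucose release, from 638, 830.4 and 821 to 94.6, 201 and 126 CPM and Pcx from 1186, 1249 and 1310.4 to 199, 347 and 294 CPM. The call for Pck1 was lost without 6-week replicate 1 (-1.41, adjusted p = 0.0798). The hexokinases rose: Hk1 by 1.13, Hk2 from 0.424, 1.12 and 1.59 to 35.7, 14.8 and 28.9 CPM and Hk3, the myeloid form, from 0.182, 0.305 and 0.317 to 28.1, 9.3 and 18.5 CPM. Pfkp (1.85), Pkm (1.38) and Pfkfb3 (1.21), which speed glycolysis, rose under all 3 scalings. Of the listed glycolytic genes with many near-identical copies, whose reads are hard to assign, Gapdh and Pgam1 did not pass, and Pgk1 and Ldha fell (differences of -0.38 and -0.23), the last at 0.038 and not called under quantile normalization. Without DMSO replicate 1 Pgk1 was not called (adjusted p = 0.0503), and without any 1 library but 6-week replicate 2 Ldha was not (adjusted p from 0.0687 to 0.168).

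**Figure D2:**
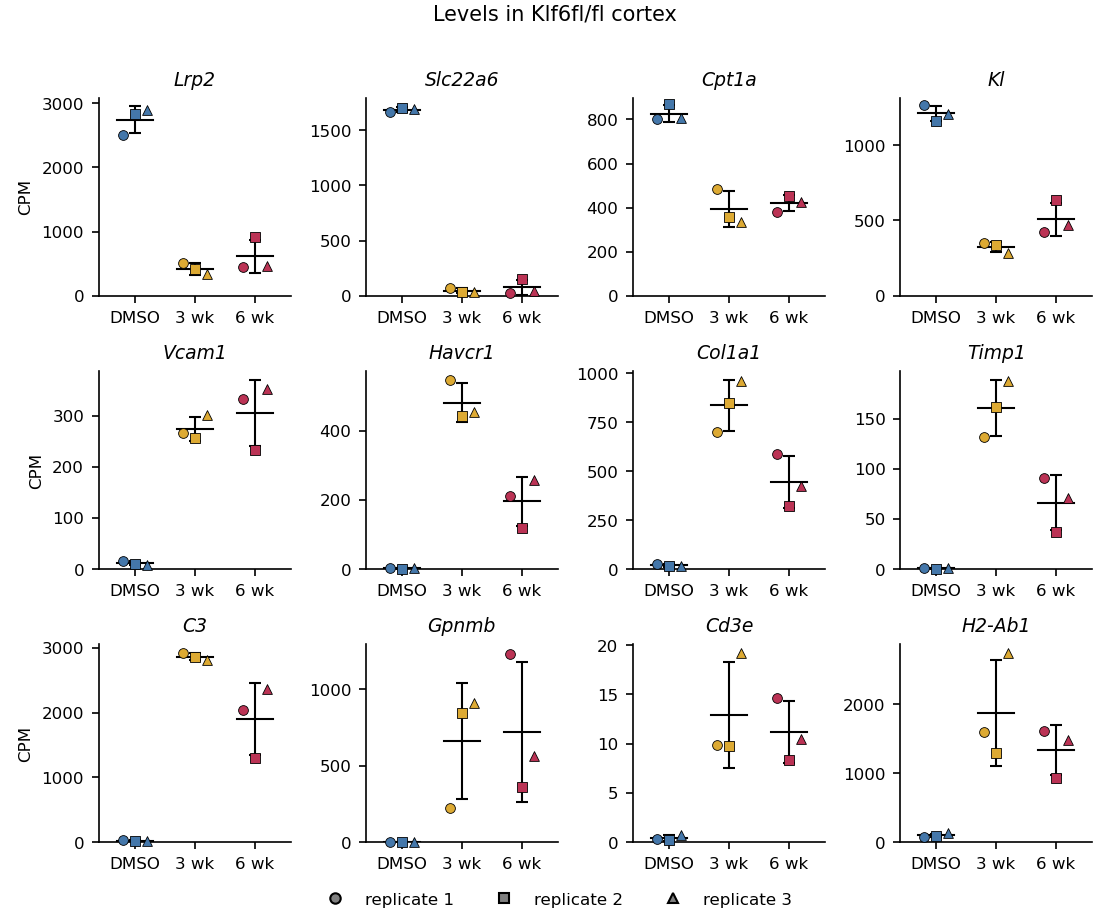
CPM of 12 genes in the DMSO, 3-week AAI (3 wk) and 6-week AAI (6 wk) libraries of Klf6fl/fl cortex; symbols are libraries, by replicate, and lines the mean ± SD of 3. At 6 weeks Lrp2 (456, 917 and 471) stays under its DMSO levels and Vcam1 (332, 232 and 352) over its own in every library, and replicate 2 (squares) is the 6-week library nearest to DMSO in all 12 panels.

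The segments beyond the proximal tubule showed mixed changes, mostly smaller. In the thick ascending limb Umod, its most abundant product, was at 3257, 3578 and 5991 CPM under DMSO and 5928, 4536 and 2598 CPM at 6 weeks, and the salt transporter Slc12a1 at 606, 775 and 1097 CPM under DMSO and 1689.7, 972 and 598 CPM at 6 weeks; both overlapped with DMSO and did not pass. Egf, the growth factor this segment and the distal tubule release into urine, fell from 1956, 1970.5 and 2366 to 441, 918 and 235 CPM, a difference of -2.19 ± 0.46 (adjusted p = 0.000513), and Cldn10 fell by 0.62, a call lost without replicate 3 of either group (adjusted p = 0.104 for 6 weeks and 0.0545 for DMSO). The claudins of magnesium uptake Cldn16 and Cldn19 rose by 1.26 and 1.88, and the segment's transcription factors Irx2 and Foxq1 by 1.44 and 1.12, the last not under quantile normalization. In all, 4 of 13 markers rose and 2 fell (3 and 2 under all 3 scalings), shares near or under those of all genes. The summed markers spanned 7574 to 11500 CPM under DMSO and 5106 to 9989 CPM at 6 weeks.

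In the distal convoluted tubule Pvalb, a calcium buffer of its early part, fell from 19.6, 17.7 and 18.5 to 1.25, 7.93 and 1.55 CPM and the thiazide target Slc12a3 fell by 0.71, the latter not under quantile normalization. The calcium channel Trpv5 and the kinase Stk39 rose by 1.20 and 1.08 under all 3 scalings. Of the 14 markers 5 rose and 2 fell (2 and 1 under all 3 scalings), a balance that turned to 2 and 6 with median-of-ratios scaling. Principal cell markers rose in 10 of 14 (5 under all 3 scalings). Aqp2, the vasopressin-regulated water channel, was at 64.7, 107 and 124 CPM under DMSO and 353, 135 and 141 CPM at 6 weeks, and its call was lost with both other scalings and without 6-week replicate 1 (adjusted p = 0.219) or DMSO replicate 1 (adjusted p = 0.152). Hsd11b2, which shields the mineralocorticoid receptor from glucocorticoids, rose by 1.18 and the lineage factor Gata3 by 1.18. Aqp4 fell by 1.72, a call lost without 6-week replicate 2 or 3 or DMSO replicate 3 (adjusted p = 0.104, 0.114 and 0.16). Among intercalated cell markers 7 of 17 rose and 3 fell (3 and 2 under all 3 scalings), and with median-of-ratios scaling the balance turned to 3 and 6. The proton pump subunit Atp6v0d2 (1.35), the lineage factor Foxi1 (0.81) and Dmrt2 (1.95) rose under all 3 scalings, and pendrin, Slc26a4, fell from 103, 80.3 and 89.9 to 40.5, 69 and 43.4 CPM.

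Podocyte genes rose in 16 of 17 (10 under all 3 scalings), with a median of 1.15. Nphs1 (nephrin), of the slit diaphragm, was at 40.5, 35.3 and 35.3 CPM under DMSO and 66.3, 73.1 and 74.4 CPM at 6 weeks. Its groups did not overlap. Wt1, a transcription factor of podocytes, rose by 1.56. Endothelial genes did not move together. Kdr, the main VEGF receptor, fell from 144, 130.1 and 117 to 61, 83 and 47.8 CPM, and Flt1, Tek and its ligand Angpt1 fell (differences of -0.55, -0.41 and -0.40). The Flt1 call was lost without 6-week replicate 3 (adjusted p = 0.0942), and the Tek call without any 1 library but 6-week replicate 2 (adjusted p from 0.0557 to 0.222). Vwf, Cldn5 and the Tek antagonist Angpt2 rose by 1.83, 1.21 and 1.66. The pan-endothelial genes Pecam1 and Emcn did not pass (0.27 and 0.20), though Pecam1 was called higher without 6-week replicate 3 (0.39, adjusted p = 0.0307). In all 9 of 24 rose and 5 fell (3 and 5 under all 3 scalings; 4 and 9 with median-of-ratios scaling).

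Markers of an injured tubule were high 3 weeks after the toxin. All 19 tested genes of the tubular injury list rose (14 under all 3 scalings, against a background of 23.9%), with a median of 2.56; Tff3 was below the filter. Havcr1 (KIM-1), the phosphatidylserine receptor of injured proximal cells, was at 1.76, 1.22 and 2.17 CPM under DMSO and 209.7, 119 and 257 CPM at 6 weeks. Spp1 (osteopontin) was at 639, 571 and 714 CPM under DMSO and 10056, 8915 and 14525 CPM at 6 weeks, Clu, an extracellular chaperone, at 342, 257 and 297 CPM under DMSO and 2547, 2203 and 3657 CPM at 6 weeks and Krt20 at 0.121, 0.152 and 0.211 CPM under DMSO and 46.3, 18.7 and 46.7 CPM at 6 weeks. None of these groups overlapped. Markers of failed repair rose in 24 of 25 (21 under all 3 scalings). Vcam1, an adhesion molecule known as a marker of this state, was at 15.4, 9.91 and 8.35 CPM under DMSO and 332, 232 and 352 CPM at 6 weeks, a difference of 4.67 ± 0.27 (SE, adjusted p = 1.74e-09). The progenitor factors Sox9 and Sox4 rose by 3.97 and 3.04, and the simple-epithelium keratins Krt19, Krt18, Krt7 and Krt8 by 4.42, 3.06, 1.61 and 1.45. Dcdc2a, a doublecortin family gene, was at 12.7, 12.1 and 17.7 CPM under DMSO and 174, 178 and 160.5 CPM at 6 weeks. Its 3 libraries at 6 weeks were closely spaced, and replicate 2 was the highest of them. Vcam1 and Ccl2 are also made by endothelium and immune cells, and the part of those cells in their rise was not tested.

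Scar matrix was raised across its main classes. Of 20 collagen genes 17 rose (15 under all 3 scalings). Col1a1, the main fibrillar collagen of scar, was at 26.9, 16.2 and 14.5 CPM under DMSO and 585, 319 and 424 CPM at 6 weeks. Col3a1, which forms finer fibrils with it, was at 44, 24.1 and 21.5 CPM under DMSO and 898, 437 and 608 CPM at 6 weeks. Neither overlapped with DMSO, and Col12a1 rose most (4.79). The basement membrane chains parted: Col4a1 and Col4a2 rose by 1.94 and 1.80, Col4a4 fell by 0.48, a call lost without replicate 3 of either group (adjusted p = 0.0818 for 6 weeks and 0.053 for DMSO), and Col4a3, at 293, 323 and 246 CPM, did not pass. Of 26 glycoproteins, proteoglycans and crosslinkers 24 rose (23 under all 3 scalings), with a median of 2.52. Ltbp2, a latent TGF-beta binding family protein of elastic fibres, was at 0.787, 0.305 and 0.634 CPM under DMSO and 135, 74.1 and 116 CPM at 6 weeks. Tnc (tenascin C), Lox, which crosslinks collagen, Fn1 (fibronectin) and Mgp, an inhibitor of calcification, rose by 4.37, 4.35, 3.89 and 3.52. Fbln5 was at 279, 194 and 66.4 CPM under DMSO and 89.2, 102 and 71.4 CPM at 6 weeks and Ecm1 at 191, 128 and 55.6 CPM under DMSO and 127, 103 and 122 CPM at 6 weeks; neither passed and both overlapped. Without DMSO replicate 3 Fbln5 was called lower (-1.42, adjusted p = 0.00502).

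Of 18 proteases and inhibitors of matrix turnover 14 rose, all of them under all 3 scalings, and 2 fell (1 under all 3). Mmp2 rose by 5.03 and Mmp14, which activates it, by 4.04. Mmp7, a tubular target of Wnt signalling, was at 0, 0 and 0.106 CPM under DMSO and 17.8, 15.4 and 10.7 CPM at 6 weeks, with 2 DMSO reads in all and a ratio of 417 (115 to 3447). The protease inhibitor Timp1 was at 0.727, 0.356 and 0.793 CPM under DMSO and 90.8, 36.7 and 71.1 CPM at 6 weeks. Its groups did not overlap. Timp3, the matrix-bound inhibitor, fell from 3613, 3539.6 and 4220.3 to 1531, 1704 and 1338 CPM. Fibroblast and mural cell markers rose in 15 of 17 (11 under all 3 scalings). Thy1, at 4.06, also marks T cells, Acta2, the smooth muscle actin of myofibroblasts, rose from 43.4, 37.8 and 24.9 to 103, 81.7 and 109 CPM, and Gli1 rose by 1.62. Myh11, a myosin of vascular smooth muscle, and Rgs5, of pericytes, differed by -0.71 and 0.11 and did not pass, though Myh11 was called lower without replicate 2 (-0.97, adjusted p = 0.0365).

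Among ligands of the TGF-beta family Tgfb1, Tgfb2 and Tgfb3 rose by 2.40, 2.81 and 2.95, and the activin subunits Inhba and Inhbb by 1.44 and 2.32. The antagonists Fst (follistatin) and Grem1 (gremlin) rose from 0.242, 1.32 and 4.7 to 66.1, 29.9 and 45.5 CPM and from 0, 0.254 and 0 to 10.7, 5.12 and 3.17 CPM. Bmp7, which protects tubules, fell by 0.45. The receptors Tgfbr1 and Tgfbr2 rose by 1.19 and 1.33. In all 18 of 24 rose and 1 fell (11 and 1 under all 3 scalings). Of 21 Wnt pathway genes 16 rose and 3 fell (10 and 3 under all 3 scalings). Ligands known from injured tubules were among those that rose: Wnt4 from 1.57, 1.02 and 0.74 to 24.9, 16.1 and 24.3 CPM, Wnt7b by 3.73 and Wnt10a by 3.47, with the pathway target Axin2 at 2.58. Wnt5b, the coreceptor Lrp6 and the R-spondin receptor Lgr4 fell (differences of -1.53, -0.38 and -0.67), Lrp6 not without 6-week replicate 3 (adjusted p = 0.0643). In the EGF family 5 of 11 rose and 2 fell (2 and 2 under all 3 scalings). Among its ligands Tgfa and Nrg1 rose by 1.56 and 1.83 while Egf fell.

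**Figure D3:**
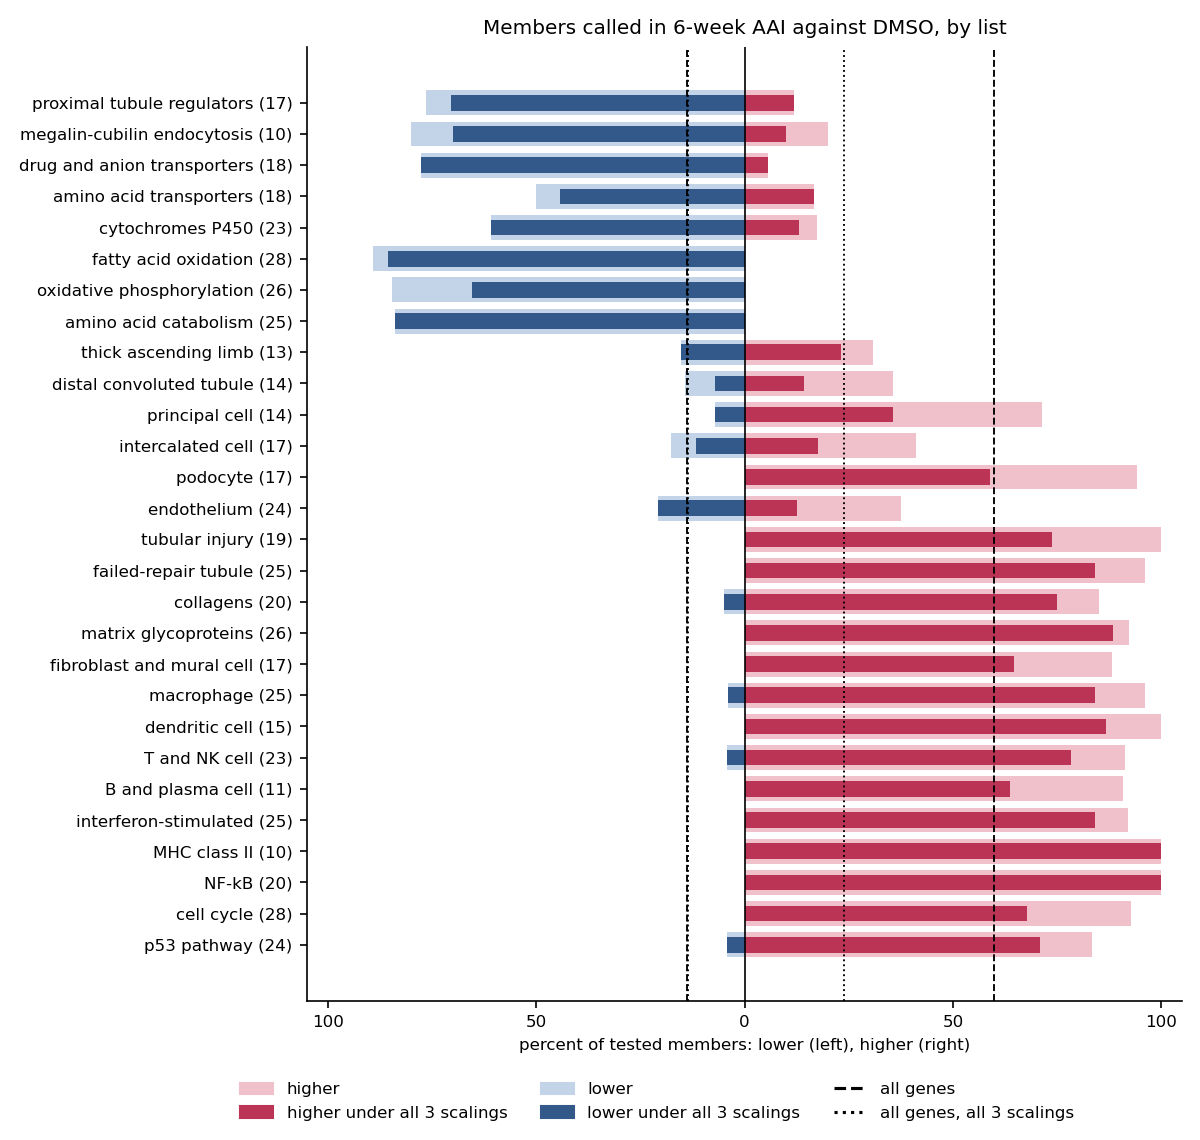
Percent of the tested members of 28 gene lists (number tested in brackets) called higher (right) or lower (left) at 6 weeks of AAI against DMSO; dark bars hold under all 3 scalings, and lines mark the same shares over all genes (59.8% and 13.9%, and dotted 23.9% and 13.5%). MHC class II and NF-kB reach 100% higher with dark bars, and fatty acid oxidation has no member higher.

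Macrophage genes rose in 24 of 25 (21 under all 3 scalings), with a median of 4.26, and their summed level spanned 481 to 560.2 CPM under DMSO and 6541 to 11020 CPM at 6 weeks. The complement subunit C1qa was at 17.5, 12.1 and 20.6 CPM under DMSO and 523, 321 and 551 CPM at 6 weeks, and Trem2, a lipid receptor of scar-associated macrophages, at 0.242, 0.102 and 0.317 CPM under DMSO and 65.8, 28.2 and 55.4 CPM at 6 weeks. The fractalkine receptor Cx3cr1 and the monocyte receptor Ccr2 rose by 4.08 and 3.35. Mertk, the efferocytosis receptor, was the 1 that fell (-0.32), not so called without 6-week replicate 3 (adjusted p = 0.0685). Dendritic cell genes rose in all 15 tested (13 under all 3 scalings). Itgax (CD11c), the cross-presenting cell receptor Xcr1, and Ccr7 and Ccl22 of migrating dendritic cells rose by 4.88, 2.55, 2.61 and 4.09.

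T and NK cell genes rose in 21 of 23 and fell in 1 (18 and 1 under all 3 scalings). The 1 that fell differed by -0.6 and was not called without 6-week replicate 2. Cd3e, of the T cell receptor complex, was at 0.303, 0.203 and 0.74 CPM under DMSO and 14.6, 8.36 and 10.5 CPM at 6 weeks, the helper cell coreceptor Cd4 at 0.424, 0.914 and 1.06 CPM under DMSO and 30.1, 20.6 and 21.1 CPM at 6 weeks and the cytotoxic cell coreceptor Cd8a at 0.969, 0.711 and 1.11 CPM under DMSO and 22.4, 11.9 and 17.2 CPM at 6 weeks. Foxp3, the factor of regulatory T cells, was at 0, 0.102 and 0 CPM under DMSO and 19, 14.2 and 14.8 CPM at 6 weeks, with 2 reads in all under DMSO and a ratio of 455 (126 to 3768). Its 6-week libraries were closely spaced. Il7r rose most (4.94), and the checkpoint receptor Ctla4 rose by 2.46. The cytotoxic granule gene Gzma did not pass (0.54). B and plasma cell genes rose in 10 of the 11 tested (7 under all 3 scalings). The coactivator Pou2af1 was at 1.76, 1.37 and 2.75 CPM under DMSO and 17.6, 18.6 and 18 CPM at 6 weeks, Mzb1, of antibody-secreting cells, at 1.63, 0.965 and 2.22 CPM under DMSO and 11.8, 11.3 and 9.74 CPM at 6 weeks and the antigen receptor subunit Cd79a at 1.03, 0.457 and 1.37 CPM under DMSO and 5.78, 6.14 and 7.27 CPM at 6 weeks. Cd22 rose most (3.70). The B cell markers Ms4a1 and Pax5 were below the filter. Genes of lymphoid aggregates rose in 12 of 14 (6 under all 3 scalings). Cxcl13, the chemokine that draws B cells, was at 0.424, 0.305 and 0.106 CPM under DMSO and 51.3, 21 and 45.3 CPM at 6 weeks, Ltb (lymphotoxin beta) at 0.787, 0.762 and 0.898 CPM under DMSO and 27.1, 11.3 and 17.8 CPM at 6 weeks and the B cell survival factor Tnfsf13b at 1.45, 1.27 and 1.06 CPM under DMSO and 23.5, 18.5 and 22.9 CPM at 6 weeks, all without overlap. Bcl6, of germinal centre cells, did not pass (-0.12).

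Chemokines and cytokines rose in 26 of 28 (25 under all 3 scalings). Ccl2, Ccl8, Ccl6 and Ccl9, which draw monocytes, rose by 5.21, 5.26, 5.38 and 5.99, the T cell attractants Cxcl9 and Ccl5 by 4.05 and 4.18, and Il1rn, the natural antagonist of interleukin 1, by 5.31 against 2.30 for Il1b. The stromal chemokine Cxcl12 did not pass (-0.75), though it was called lower without 6-week replicate 1 or DMSO replicate 3 (adjusted p = 0.0243 and 0.0234). Complement rose in 19 of 23 (15 under all 3 scalings). C3, the hub of all pathways, was at 34.1, 17.6 and 23.1 CPM under DMSO and 2047, 1295 and 2371 CPM at 6 weeks, its inactivator Cfi and the stabiliser of its convertase Cfp rose by 3.62 and 4.44, and Cfb, the protease of the alternative pathway, fell from 627, 622 and 617 to 276, 261 and 357 CPM. Hc (C5) and C7 were called higher but lost the call without several single libraries, among them 6-week replicate 2 (adjusted p = 0.0882 and 0.0868).

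Genes of antigen presentation rose together. All 10 tested class II genes and all 10 tested class I genes rose under all 3 scalings, with medians of 3.81 and 2.56. The class II beta chain H2-Ab1 was at 76, 85 and 129 CPM under DMSO and 1616, 926 and 1476 CPM at 6 weeks. Its alpha chain partner H2-Aa was at 73.1, 77.9 and 123 CPM under DMSO and 1538, 956 and 1463 CPM at 6 weeks. Ciita, the coactivator that switches class II genes on, was at 5.81, 4.88 and 7.66 CPM under DMSO and 69.7, 43.4 and 72.1 CPM at 6 weeks. No 6-week library reached down to DMSO for these 3 genes. The peptide loading genes H2-DMa, H2-DMb1 and H2-DMb2 rose by 3.66, 2.78 and 3.91. Nlrc5, the matching coactivator of class I, rose by 3.37 and the immunoproteasome subunit Psmb8 by 3.12. Interferon-stimulated genes rose in 23 of 25 (21 under all 3 scalings), with Gbp2 at 9.26, 11.2 and 9.09 CPM under DMSO and 163, 57.2 and 162 CPM at 6 weeks, Ifit3 at 6.72, 8.79 and 9.3 CPM under DMSO and 56.8, 36.7 and 54.1 CPM at 6 weeks and Isg15 at 1.09, 1.22 and 1.11 CPM under DMSO and 8.72, 4.35 and 8.04 CPM at 6 weeks. Rsad2 (0.08) and Ifi44 (0.68), members of the same program, did not pass.

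Because these genes moved together, the promoters of some groups were read for the letters each program is known by. The windows below come from the RefSeq promoter table on GRCm38.p6 (the 250 bases before each start, read on the gene's own strand), and capitals mark a motif match on either strand. Class II promoters are known to carry a Y box, searched as GATTGG, which binds NF-Y, below an X box, which binds the RFX complex that Ciita joins.
H2-Aa, chr17:34287847-34287892 (minus strand): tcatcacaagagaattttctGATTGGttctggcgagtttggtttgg
H2-Eb1, chr17:34305787-34305857 (plus strand): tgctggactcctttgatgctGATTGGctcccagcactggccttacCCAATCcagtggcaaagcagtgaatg
H2-DMb1, chr17:34153073-34153154 (plus strand): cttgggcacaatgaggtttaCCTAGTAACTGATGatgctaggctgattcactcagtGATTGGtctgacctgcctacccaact
H2-DMb2, chr17:34145138-34145183 (plus strand): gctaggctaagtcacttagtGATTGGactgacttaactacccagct
Shares here are of genes, and a gene was counted if any of its listed starts held the motif. A Y box was in 6 of the 7 class II genes with a listed promoter (85.7%) against 16.6% of all 27025 such genes. A strict X box (CC, any 2 bases, G, any 2 bases, AC, any base and GATG) was in 1 of 7 against 0.259%. That X box is the other run of capitals in H2-DMb1. Interferon-stimulated genes are known by an element searched as GAAA, any 2 bases and GAAA again, whose matches can overlap.
Isg15, chr4:156200855-156200916 (minus strand): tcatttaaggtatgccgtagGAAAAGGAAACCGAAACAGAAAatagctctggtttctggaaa
Ifit3, chr19:34583353-34583436 (plus strand): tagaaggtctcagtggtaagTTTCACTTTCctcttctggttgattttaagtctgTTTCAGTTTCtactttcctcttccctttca
Gbp2, chr3:142620584-142620633 (plus strand): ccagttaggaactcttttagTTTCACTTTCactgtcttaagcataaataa
This element was in 9 of the 17 interferon-stimulated genes with a listed promoter (52.9%) against 3.46% of all, and Rsad2, which did not rise, was among the 9. It was in 1 of 8 class I genes (12.5%). The AP-1 motif TGANTCA was in 4 of 12 genes of matrix proteases and their inhibitors, Mmp7, Mmp12, Mmp3 and Adam19, against 7.82% of all. It was in 0 of 11 of the AP-1 and EGR genes. A match is a description of these letters and not a site of binding.

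Signalling genes of inflammation were high. All 20 NF-kB members and targets rose under all 3 scalings, with a median of 2.42. Relb, of the non-canonical arm, was at 4.72, 4.12 and 4.49 CPM under DMSO and 49.8, 30.1 and 49.5 CPM at 6 weeks, and Cd44, the hyaluronan receptor, at 2.85, 2.49 and 4.6 CPM under DMSO and 182, 87.5 and 155 CPM at 6 weeks. All 16 AP-1 and early growth response genes rose (12 under all 3 scalings), with Atf3 from 0.727, 0.813 and 1.37 to 31.9, 20.6 and 24.5 CPM, Egr2 by 4.14 and Junb by 2.72. Among the Krüppel-like factors 11 of 15 rose and 4 fell (6 and 4 under all 3 scalings). Klf6, the floxed gene, was at 39.7, 39.2 and 42.3 CPM under DMSO and 284, 201 and 270.3 CPM at 6 weeks, and Klf5 and Klf4 rose by 2.65 and 2.21. Klf15, a regulator of amino acid and lipid use, fell from 144, 149 and 115 to 32.3, 61.8 and 35.3 CPM, and Klf12, Klf1 and Klf9 fell (differences of -1.20, -0.97 and -0.84).

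Proliferation and the p53 response were above DMSO. Of 28 cell cycle genes 26 rose (19 under all 3 scalings), with Mki67, the marker of cycling cells, at 2.48, 2.85 and 6.98 CPM under DMSO and 54.3, 27 and 55.7 CPM at 6 weeks and Top2a at 2.6, 1.93 and 2.64 CPM under DMSO and 36, 16.9 and 41.2 CPM at 6 weeks. Ccnd1, the G1 cyclin, was at 296, 322 and 388 CPM under DMSO and 431, 346 and 370.1 CPM at 6 weeks, and Tk1, of thymidine salvage, at 5.21, 4.57 and 4.97 CPM under DMSO and 5.83, 2.64 and 7.11 CPM at 6 weeks; neither passed, and Ccnd1 was called lower with median-of-ratios scaling. Of 24 p53 pathway genes 20 rose and 1 fell (17 and 1 under all 3 scalings). Cdkn1a (p21), which halts the cell cycle, was at 4.3, 4.42 and 4.44 CPM under DMSO and 191, 128 and 248 CPM at 6 weeks, a difference of 5.09 ± 0.22 (SE, adjusted p = 2.02e-10). Phlda3 and the p53-induced receptor Eda2r rose by 3.73 and 3.57, and Sesn2 fell by 0.73. Of 18 genes linked to senescence 13 rose and 4 fell (11 and 4 under all 3 scalings). Among them Cdkn2a (p16 and p19ARF) had no read in any DMSO library and stood at 1.4, 1.62 and 2.55 CPM at 6 weeks, at least 32.9-fold higher against a floor of 3 reads over the DMSO group, and its neighbour Cdkn2b rose from 0.424, 0.406 and 0.74 to 15.1, 8.96 and 11.2 CPM. Igfbp3, Igfbp4, Igfbp5 and the lysosomal galactosidase gene Glb1, all known from senescent cells, fell (differences of -1.85, -1.15, -1.14 and -0.71).

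Hormone axes of the kidney were mixed. Of 12 genes of the klotho and vitamin D axis 4 rose, 4 fell (1 and 4 under all 3 scalings) and 4 did not pass. Kl (klotho), the FGF23 coreceptor of the distal tubule, was at 1264, 1159.7 and 1205 CPM under DMSO and 425, 633 and 469 CPM at 6 weeks, without overlap. In the renin-angiotensin list 2 of 9 rose and 4 fell (1 and 4 under all 3 scalings). Agt, the substrate, rose from 54.9, 61.1 and 84.8 to 181, 268 and 222 CPM, whereas Ace, the angiotensinase Enpep and the receptor Agtr1a fell (differences of -1.75, -1.16 and -0.90), and Ren1 was listed at 0 in all 9 Klf6fl/fl libraries, as was Eno1, a glycolytic gene that all cells use, so nothing is read from it. Of 18 genes of NAD synthesis and use 9 fell and 6 rose (9 and 4 under all 3 scalings). In the pathway of tryptophan breakdown that can lead to NAD, Kmo, Afmid (-2.47), Haao (-1.92), Acmsd (-1.71) and Qprt (-1.25) fell. Not all of these enzymes act towards NAD. Nampt, of the salvage route, fell by 0.46, a call lost without 6-week replicate 3 (adjusted p = 0.0607). The NAD-consuming Bst1 and Cd38, both known from immune cells, rose by 4.0 and 1.53. NRF2 targets were divided, 8 of 16 higher and 7 lower (6 and 5 under all 3 scalings; 6 and 8 with median-of-ratios scaling). Nqo1 fell from 63.4, 60.9 and 73.5 to 26.1, 38.5 and 32.1 CPM, Me1, Osgin1 and Gclm fell (differences of -1.45, -0.91 and -0.67), and Akr1b8 (3.32) and Cbr3 (2.01) rose with Slc7a11.

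A direct test of the 6-week against the 3-week fl/fl libraries asked which levels differed once the toxin had been stopped. In all 1046 genes (7.16%) were higher and 886 (6.07%) lower at 6 than at 3 weeks. These counts rested in part on single libraries: they were 401 (2.75%) and 242 (1.66%) without 6-week replicate 2, and 367 and 275 without 3-week replicate 3. The counts of gene groups are therefore given with and without 6-week replicate 2, called replicate 2 here. They were not counted without 3-week replicate 3, so a call that held without replicate 2 may still rest on that library. Of the named genes in this test, 14 lost their call without replicate 2 and 11 without 3-week replicate 3. The largest gain was that of Kap, an androgen-regulated gene and among the most abundant of the cortex. It was at 68.5, 436 and 180.2 CPM at 3 weeks and 4353, 13121 and 3057 CPM at 6, against 27926, 31870.3 and 28349 CPM under DMSO, a gain of 4.99 (adjusted p = 0.0024) that was 4.37 without replicate 2. Slc7a13, a cystine and aspartate carrier, went from 1.9, 23.1 and 6.98 to 176, 481 and 112 CPM (DMSO 1166, 1271 and 1328). Slc22a7 went from 1.16, 4.27 and 2.7 CPM to the levels given above (4.43, adjusted p = 0.00855, and 0.0529 without replicate 2). Acsm3 and Cyp2a4 completed the 5 largest gains, at 4.76 and 3.96. Replicate 2 was the highest 6-week library for all 5 genes. Only called genes with a mean of at least 5 CPM in 1 group and no overlap between the 2 groups could be picked for the largest gains or falls. That the other 6-week libraries also lay above every 3-week library was thus a condition of the choice and not a finding.

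Of the amino acid catabolism genes 13 of 25 were higher at 6 than at 3 weeks (7 without replicate 2) and none was lower. Dmgdh (of choline and betaine breakdown), Bhmt2 and Haao (of NAD synthesis) were higher by 2.59, 2.59 and 2.06 with it and 2.20, 2.18 and 1.62 without it. Of the fatty acid oxidation genes 10 of 28 were higher (4 without replicate 2) and 1 was lower (0 without it; 1 at an unadjusted p under 0.05, limma). Acadm, of medium chains, was higher by 1.63. Of the drug transporters 7 of 18 were higher (2 without it), and of the regulators 6 of 17 (1 without it). Slc22a6, Slc22a8, Lrp2, Cubn, Slc34a1 and Ppara did not pass this test (differences of 0.51, 0.17, 0.48, 0.66, 0.09 and -0.12), which does not show that they stayed the same.

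In the thick ascending limb 8 of 13 genes were higher at 6 than at 3 weeks, but 2 without replicate 2. Slc12a1 was at 141, 458 and 207 CPM at 3 weeks (2.06, adjusted p = 0.0168), and without replicate 2 the difference was as large and did not pass (2.08, adjusted p = 0.0583). Egf was at 41.9, 183 and 56.4 CPM (2.58, and 2.07 with an adjusted p of 0.0189 without replicate 2), so it had gained and was still below DMSO. Ace was higher by 1.89, also without replicate 2, while Kl and Agt, at 0.64 and 0.90, lost the call without it (adjusted p = 0.094 and 0.188). Psca, a surface antigen of urothelium, went from 1.23, 2.77 and 1.53 to 24.1, 10.7 and 10.8 CPM (2.45, and 2.64 without replicate 2). The urothelial gene Upk1a did not pass (1.60). In all 4 of 10 markers of medulla and urothelium were higher than at 3 weeks (1 without replicate 2). The sum of these markers was 929 to 1227 CPM under DMSO, 164 to 446 CPM at 3 weeks and 516 to 1146 CPM at 6 weeks. Every 3-week library thus lay below the DMSO and 6-week libraries in that sum. The part of medulla and urothelium in the distal changes was not tested. Of the 25 failed repair genes 1 was higher and 3 were lower than at 3 weeks (0 and 1 without replicate 2; 5 higher at an unadjusted p under 0.05, limma). Dcdc2a was higher by 0.60 (adjusted p = 0.0776 without replicate 2). Cdh2, a cadherin, was lower by this test (-1.32, and -1.14 with an adjusted p of 0.00437 without replicate 2), as were Akap12 and the intermediate filament gene Vim (-0.91 and -0.94), whose calls were lost without it (adjusted p = 0.0564 and 0.126), while Vcam1, Sox9 and Krt19 did not pass (0.14, -0.15 and 0.83).

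Cell division and the p53 response were lower at 6 weeks than at 3. Of the cell cycle genes 16 of 28 were lower (5 without replicate 2), the mitotic kinase Aurkb (-1.48) and Rrm2, of nucleotide synthesis (-1.38), among them. Of the p53 pathway genes 16 of 24 were lower (7 without it), and Cdkn1a stayed lower without it (-1.28 with and -1.02 without). Of the tubular injury genes 6 were lower, and 0 without replicate 2 (limma; 6 at an unadjusted p under 0.05). Havcr1 was at 545, 443 and 455 CPM at 3 weeks (-1.36, adjusted p = 0.0164, and 0.0939 without replicate 2), and Gdf15, Krt20, Timp1 and Fn1, at -1.39, -1.17, -1.34 and -1.43, lost their calls in the same way. Vcan, a proteoglycan of young scar, and Acta2 were lower (-1.66 and -1.32), also without it. Col1a1 and Col3a1 did not pass (-0.94 and -1.26), though every 6-week library lay below every 3-week library.

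Among macrophage genes 6 were lower than at 3 weeks (3 without replicate 2). They were Arg1, an enzyme of alternatively activated macrophages, from 26.2, 46.9 and 36.1 to 10.8, 1.88 and 5.72 CPM (-2.58, adjusted p = 0.0521 without replicate 2), the mannose receptor Mrc1, the resident macrophage markers Lyve1 and Folr2, the haemoglobin scavenger receptor Cd163 and the integrin Itgam. Gpnmb, Trem2 and C1qa did not pass (0.18, -0.46 and -0.91). Of the chemokines and cytokines 7 of 28 were lower and 1 higher than at 3 weeks (1 and 0 without replicate 2; 2 higher at an unadjusted p under 0.05, limma), and Csf1, the macrophage growth factor, stayed lower without it (-1.03 with and -0.65 without), a call lost without 3-week replicate 3. Of the complement genes 5 of 23 were lower (1 without it), of which Cfp stayed lower (-1.63 with and -1.48 without). Of the NF-kB genes 4 of 20 were lower (0 without it; 4 at an unadjusted p under 0.05, limma). None of the T and NK cell, interferon, class I or class II genes passed in either direction (limma; at an unadjusted p under 0.05 there were 0, 5, 5 and 2 lower and 0 higher in each), with medians of -0.06, -0.45, -0.50 and -0.47. Besides Arg1, the largest falls from 3 to 6 weeks were in the eosinophil ribonuclease Rnase2a (-3.37), the epidermal gene Crct1 (-2.45), Nipal4 (-2.31) and the macrophage lectin Chil3 (-2.31). Rnase2a was at 26, 6.1 and 28 CPM at 3 weeks and 3.04, 0.171 and 0.0773 CPM at 6, so replicate 1 was the high library of the latter.

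**Figure D4:**
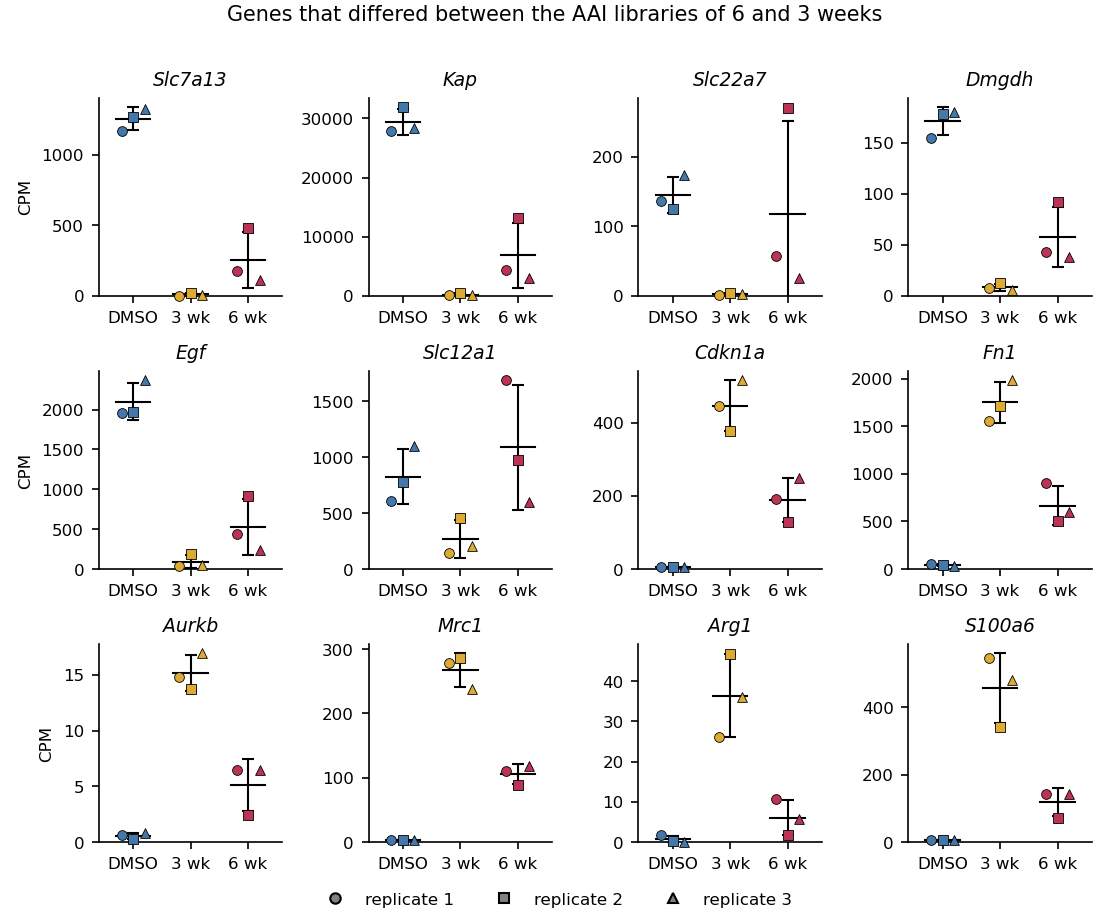
CPM of 12 genes called different between 6 and 3 weeks with all libraries, with the DMSO libraries at left; symbols are libraries, by replicate, and lines the mean ± SD of 3. The first 6 (Slc7a13 to Slc12a1) are higher at 6 than at 3 weeks, and the last 6 (Cdkn1a to S100a6) lower, with Slc22a7 in replicate 2 (271) above its DMSO levels; error bars stop at 0.

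Replicate 2 of the 6-week group lay nearer to DMSO than the other 2 for most genes called against DMSO. Among genes called higher it lay nearest to DMSO in 6286 of 8733 (72%), and among genes called lower in 1579 of 2036 (77.6%). The median difference of the higher genes from the DMSO mean was 0.69 in replicate 2 against 0.92 and 0.90 in replicates 1 and 3, and of the lower genes -0.52 against -0.85 and -0.77. It correlated at 0.9804 and 0.9805 with the other 2, which correlated at 0.9898 with each other. It was also the shallowest library, and thinning all libraries to its 11722625 reads left 8497 genes higher and 1974 lower. Without it 8667 genes were higher and 2131 lower. Of those called with it, 8465 of 8733 and 1963 of 2036 kept their call, and no gene changed direction. A further 202 genes were called higher and 168 lower only without it. Among the largest such rises, over 5 CPM, were Rnase4 (1.72), the prostaglandin receptor Ptger3 (1.09), Plk3 (0.89) and Fam46b (0.79), and the largest such falls were Apoa1 (-1.62), Slc22a26 (-1.52), the bile acid reductase Akr1d1 (-1.35), Mpped1 (-1.23) and the deiodinase Dio1 (-1.07). For Slc22a26, Akr1d1, Mpped1 and Dio1 the level in replicate 2 reached or passed the DMSO range, while the other 2 libraries lay below it. Akr1d1 was at 15.4, 40.4 and 13.8 CPM against 38.4, 35.4 and 43.1 CPM under DMSO. In each gene list the counts of higher and of lower genes against DMSO stayed within 1.5 times without replicate 2, except 4 small counts of lower genes: principal cells went from 1 to 0, T and NK cells from 1 to 0, lysosome genes from 1 to 0 and fibroblast and mural cells from 0 to 1. Macrophage genes were higher in 24 of 25 without it, fatty acid oxidation genes lower in 25 of 28, and tubular injury genes higher in 19 of 19.

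Markers of other tissue that pieces of cortex could hold were read as well. Of the adipocyte list the defining genes Adipoq, Plin1 and Cidec were below the filter. Of its 6 tested genes 2 fell, Pck1, which proximal tubules also express, and Car3 (-2.20, not called without 6-week replicate 1 or DMSO replicate 1, adjusted p = 0.0763 and 0.0504), and 0 rose (limma, and 0 at an unadjusted p under 0.05 or by edgeR or DESeq2). The haemoglobin genes Hba-a1 and Hbb-bs were listed at 0 in all 6 libraries. All 4 tested muscle and nerve markers rose (1 under all 3 scalings), with sums of 7.42 to 9.3 CPM under DMSO and 15.5 to 27.4 CPM at 6 weeks; the muscle genes Acta1 and Ckm were below the filter. The part of such tissue in the changes above was not tested.

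**Figure D5:**
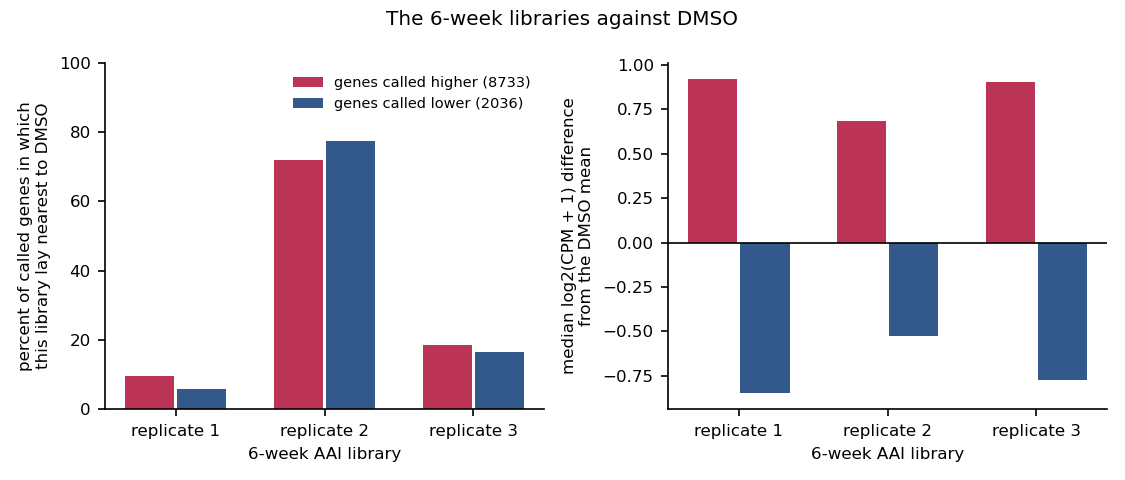
Left, the percent of called genes in which each 6-week library lay nearest to DMSO, for genes called higher (8733) and lower (2036); right, the median log2(CPM + 1) difference of each library from the DMSO mean over the same genes. Replicate 2 has the tallest bars at left (72% and 77.6%) and the shortest at right (0.69 and -0.52).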

How the data were processed

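Total RNA of mouse kidney cortex was sequenced with a TruSeq Stranded Total RNA kit, per the labels' protocols. The deposited values are CPM per gene and library, 24062 genes in 18 libraries of 6 groups, 3 libraries each. The submitters' processing notes name bcl2fastq 2.19, kallisto and mm10, with no role or order. Every CPM value times the library total was a whole number of reads (433116 values, 100% within 0.01 read), so the totals, and counts for the count tools, were recovered from the deposited CPM.

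Genes at 1 CPM or more in at least 3 libraries (14604) were tested on log2(CPM + 1) with limma (version 3.58.1, under R 4.3.3), fitting a mean for each of the 6 groups (12 residual degrees of freedom), a variance trend and Benjamini-Hochberg adjustment at 0.05. Alternatives were other pseudocounts, filters and scalings, edgeR 4.0.16 and DESeq2 1.42.0 on the recovered counts, a replicate block, thinning and each library left out. For the test against 3 weeks, quantile normalization and leaving out libraries other than 6-week replicate 2 were chosen after seeing the data. The fit was also run on simulated counts in which few genes changed, as many up as down. That run cannot speak to the choice of scaling.

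Same-numbered libraries of both groups showed little shared deviation (r of -0.129, 0.104 and -0.032), and the main fit used no pairing. With 3 libraries in a group this cannot show that the numbers carry none. The text names the genes with the largest changes and the smallest adjusted p, marked genes of 62 lists with 1034 of 1118 members tested, and in each list the largest and opposing changes, though not all of these are printed and some are not reported here. A few others were chosen after their values were seen. The members and lists were chosen with earlier results of these data known. Gene symbols are those of the table. Reads of near-identical copies may be split between them.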

Additional observations from a re-analysis of the deposited data

How the results depend on the processing

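The direction of the counts against DMSO depended on the scaling. From 8733 higher and 2036 lower, they became 4997 and 4712 with median-of-ratios scaling, 4095 and 5314 with quantile normalization, 4961 and 4662 with edgeR and 4991 and 4693 with DESeq2. With a log2 difference of at least 1 they were 3518 and 654. Leaving out 1 library gave 8127 to 8667 higher and 1741 to 2131 lower. The pseudocount, both filters, the fit on 6 libraries, no variance trend, leaving out replicate 2 of both groups and thinning kept both counts within 1.5 times. The replicate block gave 8687 and 2019, with 346 of 352 named genes on the same side of the threshold. Of the 311 named genes that were called, 287 kept their call with any 1 library left out and 254 under every alternative. Ccnd1, not called in the main test, was lower with median-of-ratios scaling (-0.29), edgeR (-0.30) and DESeq2 (-0.29), and Ldha, lower in the main test, was at 0.038 with quantile normalization. Against 3 weeks, leaving out 1 library gave 367 to 979 higher and 242 to 938 lower, from 1046 and 886: 401 and 242 without 6-week replicate 2, 367 and 275 without 3-week replicate 3, and 513 lower without 3-week replicate 2. The cause of these shifts was not tested. Cdkn2a, Lyz1 and Retnla had at most 1 read over the 3 DMSO libraries, so depth limits their folds.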

Other observations

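Tight junction genes changed with a split. Of 14 claudins 10 rose and 4 fell at 6 weeks against DMSO (7 and 3 under all 3 scalings). Cldn4, a sealing claudin of the collecting duct, was at 17.7, 17.8 and 18.4 CPM under DMSO and 198, 92.2 and 197 CPM at 6 weeks, and Cldn1, Cldn3 and Cldn7 rose by 2.69, 3.05 and 2.41, all under all 3 scalings. Cldn2, the cation channel of the proximal tubule, was at 818, 813 and 925 CPM under DMSO and 492, 742 and 568 CPM at 6 weeks, so replicate 2 lay close to DMSO and the call was lost with quantile normalization. Genes of inflammatory cell death rose in 16 of 17 (12 under all 3 scalings), with the necroptosis kinase Ripk3 from 0.363, 0.559 and 0.634 to 13.5, 5.63 and 13.7 CPM, the pore-former Gsdmd by 2.85 and the caspase Casp4 by 3.29. Gpx4, which guards against ferroptosis, fell by 0.32, a call lost without 6-week replicate 1 or DMSO replicate 3 (adjusted p = 0.124 and 0.0824). The myeloid protease Ctss rose from 15.4, 12.5 and 24 to 1001, 491 and 791 CPM, while the lysosomal protease Ctsh was at 271, 301 and 290.2 CPM against 279, 299 and 288 CPM under DMSO and did not pass.

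Iron and heme genes were divided, with 6 of 15 higher and 4 lower (4 and 4 under all 3 scalings), and 4 and 7 with median-of-ratios scaling. The acute phase copper protein Cp (ceruloplasmin) was at 72.6, 59 and 68 CPM under DMSO and 634, 644 and 718 CPM at 6 weeks, with replicate 2 in the middle of its group, and transferrin, Trf, at 55.8, 33.5 and 17.1 CPM under DMSO and 214, 202 and 241 CPM at 6 weeks. The transferrin receptor Tfrc fell by 0.77, a call lost without 6-week replicate 1 or 3 or DMSO replicate 3 (adjusted p = 0.0554, 0.117 and 0.0779), and the iron-sensing protein Aco1 fell by 0.81. Fth1, the ferritin heavy chain, did not pass (-0.10). Of 23 cholesterol genes 12 rose and 6 fell (4 and 6 under all 3 scalings), and 6 and 8 did with median-of-ratios scaling. The efflux pumps Abca1 and Abcg1, used by foam cells, rose by 2.08 and 2.33, and Hmgcs1, of synthesis, fell by 0.93. Of 10 serpins of clade A 5 rose and 1 fell (4 and 1 under all 3 scalings). Serpina10 and Serpina3g rose by 5.19 and 4.65. Serpina1d was at 70.1, 51.4 and 75.4 CPM under DMSO, 1.08, 5.39 and 4.75 CPM at 3 weeks and 48, 83.9 and 42.7 CPM at 6 weeks, higher than at 3 weeks by 3.74 (adjusted p = 0.00156) and not called against DMSO; near-identical copies may share its reads. The acute phase inhibitor Serpina3n rose by 5.67.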
